A study of Mus musculus with 14 samples.

Results

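Provisionally named protein-coding genes are genes that the annotation calls protein-coding but that carry a placeholder in place of a gene name. Members were the genes of the Kmt2a knockout table with the biotype protein_coding and a name that is Gm followed by digits, ends in Rik, or ends in -ps with or without a number. The rule found 122 genes among the 3956 of that table, of which 65 are Gm names, 52 are Rik names and 5 are -ps names. Gm and Rik symbols are given to mouse genes known from gene prediction or from full-length cDNA clones until a function or family is settled, and -ps marks a pseudogene. Many such genes are retrocopies, single-exon DNA copies of a processed mRNA inserted elsewhere in the genome, and others belong to recent tandem duplications. A read from such a copy can match its parent equally well, so counts of near-identical genes can be split or moved between them.

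The study sequenced total RNA of mouse lung from Kmt2a KO mice (3 libraries, called MLL in the table) and their WT mice (3 libraries), and from Men1 KO mice (4 libraries) and their WT mice (4 libraries). Kmt2a encodes the histone methyltransferase MLL and Men1 encodes menin, a protein that binds it. The labels give no age, strain, Cre driver or allele, and nothing says whether animals were littermates, so p-values measure the spread between these samples. The extraction protocol in the labels names macrophages of the peritoneal cavity, whereas tissue and source are given as lung. Of 5 lung epithelial markers, 4 had a row in the Kmt2a table (Sftpa1, Sftpb, Ager and Scgb1a1), as did 3 of 5 macrophage markers, and 0 of 4 peritoneal macrophage markers did. A row marks a called change between the groups and not expression, so these counts cannot tell which tissue was sequenced. In the authors' deposited table, the alveolar markers Sftpa1, Sftpb and Ager are higher in Kmt2a KO (log2 fold changes 2.42, 0.90 and 1.37), and the club cell gene Scgb1a1 is lower at −1.68. The part of these shifts in the results for the members was not tested. None of these markers had a row in the Men1 table. Neither Kmt2a nor Men1 has a row, so neither was listed as changed. Their levels could not be read, and loss of their RNA in the knockouts could not be checked.

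The Kmt2a table gives group means of normalized read counts and lists only genes that passed an adjusted p threshold of 0.05, so that every member passed the test by being listed. The whole reads of the 3 libraries behind each mean were recovered from its digits for all 122 members. These libraries are called a, b and c and cannot be tied to animals. Their size factors ran from 1.07 to 1.18 in Kmt2a KO and from 0.817 to 0.960 in WT, and summed reads over the members were 34867 to 38730 in Kmt2a KO and 36952 to 39328 in WT.

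Of the 122 members, 79 were lower and 43 were higher in Kmt2a KO lungs. Over the whole table, 49.5% of genes were lower and 50.5% were higher, and among the 3199 other protein-coding genes 44.7% were lower. By a 2-fold limit on the log2 fold change of the authors' deposited table, 51 of the 122 members were lower and 30 were higher. Of all 3956 genes, 1088 (27.5%) were lower and 910 (23.0%) were higher. In either direction this was 66.4% of members and 50.5% of all genes. Members had lower counts, with median Kmt2a KO and WT means of 51.7 and 96.7, against 399 and 416 for all genes. The part of this in the fold counts was not tested. The median log2 fold change in the authors' deposited table was −0.85 over the members, 0.32 over all genes and 0.44 over the other protein-coding genes. Placing the 8 members without a read in one group at a lower bound left the members' median at −0.85. Each bound lay on the same side of that median as the deposited value, so the median could not move. The 170 genes of the table annotated as processed pseudogenes, which are no members, had a median of −1.40 and 146 were lower. Of the members with Gm names 44 of 65 were lower, of those with Rik names 30 of 52, and of those with -ps names 5 of 5. Every library of one group lay above every library of the other in 121 of the 122 members, a share near that of all genes with recovered reads (97.1%). The exception was 9330159F19Rik, with 13.6, 34.1 and 25.2 normalized counts in Kmt2a KO libraries, against 191, 169.7 and 17.1 in WT libraries. WT library c lay within the knockout range.

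Transcripts of the members were compared with all transcripts of GENCODE M21 on GRCm38, and 121 of the 122 were found there by gene ID (all but Gm9938). Of these, 110 were protein-coding, 9 were processed pseudogenes and the other two were non-coding RNAs in that release. A member was taken as a near copy where its transcript matched another gene at 90% identity or more over 80% of its length, limits set after values were seen. By this measure 18 members were single-exon copies of a gene with a standard name, and 82 had no near copy. Of the members with several exons, 17 had a near copy anywhere on the same chromosome and are called clustered copies. Another 4 with several exons copied a gene with a standard name on another chromosome. Among the single-exon copies 16 were lower and 2 were higher. Among the clustered copies 14 were lower and 3 were higher. Among those with no near copy 46 were lower and 36 were higher, and of these the 47 without any exon overlap with another gene split into 24 lower and 23 higher.

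**Figure D1:**
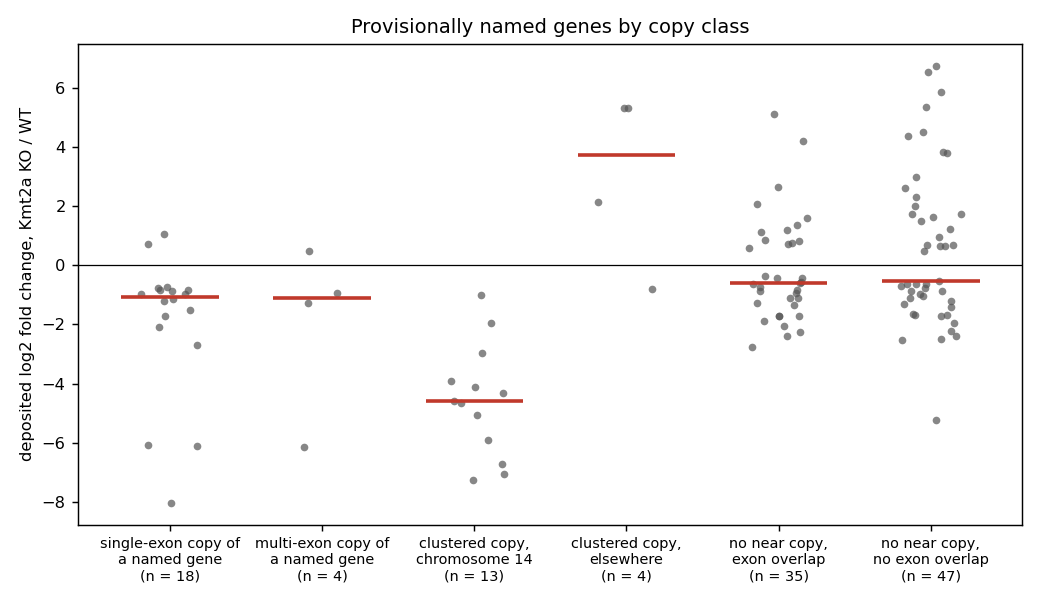
Each point is the log2 fold change, Kmt2a KO over WT, of one member in the authors' deposited table, grouped by whether its transcript is a near copy of another gene, and red lines are medians. The 13 clustered copies on chromosome 14 all lie below 0, while members with no near copy lie on both sides.

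The sequences that follow were chosen to show how close copy and match are. They are 120-base stretches of member and match, aligned and printed 5′ to 3′ from GENCODE M21 on GRCm38, with capitals at bases that differ. Gm10020, one of the 9 processed pseudogenes of that release, lies at chr15:52477617-52478228 and its match Rpl15, a protein of the large ribosomal subunit, at chr14:18267823-18271391, both on the minus strand. The copy differs from Rpl15 at 2 of 612 aligned bases (99.7% identity), both in the stretch, A156G and C202A, where the first base is that of Rpl15 and positions count from the first coding base of Rpl15.
Gm10020: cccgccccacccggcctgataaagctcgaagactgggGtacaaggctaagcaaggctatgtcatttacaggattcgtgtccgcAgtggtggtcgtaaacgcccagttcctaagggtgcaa
Rpl15: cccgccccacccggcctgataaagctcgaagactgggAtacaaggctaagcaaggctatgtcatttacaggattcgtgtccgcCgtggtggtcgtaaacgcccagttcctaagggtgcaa
Pcna-ps2 at chr19:9283380-9284160 copies Pcna, the sliding clamp of DNA replication, at chr2:132249162-132253314. It differs at 6 of 781 aligned bases, and 3 of these are in the stretch shown, A586G, G618T and G699A, counted from the first coding base of Pcna.
Pcna-ps2: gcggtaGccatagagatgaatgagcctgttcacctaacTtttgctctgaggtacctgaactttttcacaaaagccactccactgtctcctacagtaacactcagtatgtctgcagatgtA
Pcna: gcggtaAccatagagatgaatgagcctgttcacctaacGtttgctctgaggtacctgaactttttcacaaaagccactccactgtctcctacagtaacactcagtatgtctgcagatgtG
Gm7334 at chr17:50698688-50699443 is identical to the coding sequence of Btg3, a member of the antiproliferative BTG family at chr16:78332637-78377192, over the 756 bases of its GENCODE M21 transcript. The gene counted in the deposited table is 1356 bases long, and its further bases were not compared.
Gm7334: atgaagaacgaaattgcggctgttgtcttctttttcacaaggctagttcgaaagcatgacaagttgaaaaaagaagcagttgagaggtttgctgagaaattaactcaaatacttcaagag
Btg3: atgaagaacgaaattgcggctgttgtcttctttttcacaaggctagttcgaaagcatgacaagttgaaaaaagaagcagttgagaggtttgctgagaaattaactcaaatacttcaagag
Gm2974 at chr14:4182576-4204895 and Gm3558 at chr14:7545151-7568566 are members of the proximal chromosome 14 cluster. Their coding sequences differ at 9 of 618 bases, and the stretch holds 5 of them, C528T, C586T, T588C, G594T and G602A, with the base of Gm3558 first and positions from its first coding base.
Gm2974: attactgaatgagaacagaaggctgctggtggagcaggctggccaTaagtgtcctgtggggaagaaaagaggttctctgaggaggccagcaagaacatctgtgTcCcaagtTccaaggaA
Gm3558: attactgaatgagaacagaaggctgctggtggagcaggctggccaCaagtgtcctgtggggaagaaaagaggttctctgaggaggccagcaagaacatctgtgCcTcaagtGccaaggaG

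Summed over all 18 single-exon copies, normalized counts were 3621, 4118 and 3171 in Kmt2a KO libraries a, b and c, against 10832, 8551 and 11760 in WT libraries. The groups did not overlap, but each copy was listed for a test on these libraries, so the sum adds no support. By identity to the matched transcript, the 18 ranged from 99.1% to 100% so that the assignment of part of their reads is uncertain. The share of a member's 100-base windows that another gene also holds was 75.2% for Gm10020, 37.0% for Pcna-ps2 and 100% for the compared transcript of Gm7334. Over all members, 31 shared 50% or more of their windows (27 lower and 4 higher), 37 shared some but fewer (23 lower and 14 higher), and 53 shared none (29 lower and 24 higher).

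Gm10020 had 3.40, 3.50 and 3.73 normalized counts in Kmt2a KO libraries, from 4 reads in each, against 995, 559 and 1214 in WT libraries. No knockout library came near a WT library. The authors' deposited table gives a log2 fold change of −8.03 with an adjusted p of 7.84e-47, the largest decrease of a member. Its match Rpl15 had 5579.6, 5408 and 4871 in Kmt2a KO libraries, against 3456, 4106 and 3766 in WT libraries, and so was higher (log2 0.49, adjusted p = 0.0039 in the authors' deposited table). Added together, copy and match had a log2 ratio of 0.17. Gm10020 made up 0.0670% of that sum in Kmt2a KO and 19.6% in WT. Near copies of Gm10020 number 20, of which 4 have a row, so that sum leaves out other genes close to it in sequence.

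Pcna-ps2 had 6.80, 11.4 and 3.73 normalized counts in Kmt2a KO libraries, against 562, 473 and 454 in WT libraries. Pcna had 1930.45, 1823 and 1766 in Kmt2a KO libraries, against 1355, 1546 and 1467 in WT libraries. Neither pair of groups overlapped, the copy being lower and the gene higher. The authors' deposited table gives log2 fold changes of −6.08 for the copy (adjusted p = 2.05e-58) and 0.34 for Pcna (adjusted p = 0.034), and the log2 ratio of their summed means was −0.08.

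Gm10036 at chr18:15832794-15833330 (positions of members without a printed sequence are those of the deposited tables, GRCm38) is a single-exon copy of the ribosomal protein gene Rpl11 and had 41.7, 44.6 and 38.3 normalized counts in Kmt2a KO libraries, against 3192, 1787 and 3586 in WT libraries. It is the copy with the most reads in WT. The log2 fold change in the authors' deposited table is −6.10 (adjusted p = 3.67e-78), and Rpl11 has no row.

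Gm7334 had 50.2, 48.1 and 61.6 normalized counts in Kmt2a KO libraries, against 376, 123 and 176 in WT libraries. Btg3 had 1801, 1536 and 1973 in Kmt2a KO libraries, against 648, 848 and 473 in WT libraries. Reads within the 756 compared bases of the copy cannot be told apart from those of Btg3. The log2 fold changes in the authors' deposited table are −2.08 (adjusted p = 7.14e-05) and 1.43 (adjusted p = 1.04e-06).

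Gm6685, a copy of Cyb5d1, had 15.3, 14.0 and 17.7 normalized counts in Kmt2a KO libraries, against 62.5, 127 and 115 in WT libraries. Gm4737, a copy of the S-adenosylhomocysteine hydrolase gene Ahcy, had 75.7, 69.1 and 125 in Kmt2a KO libraries, against 355, 203 and 328 in WT libraries. Their libraries did not overlap either. In the authors' deposited table, Cyb5d1 and Ahcy are higher, with log2 fold changes of 0.76 and 1.14. The copies have −2.69 and −1.72 in that table.

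Over the 10 single-exon copies whose match has a row, 9 copies were lower and 2 matches were lower, and in 7 pairs copy and match went in opposite directions. The log2 ratios of summed means ran from −0.85 to 1.23. The copy of the histone deacetylase gene Hdac1 (Gm10093) was lower at −0.96 in the authors' deposited table, in which Hdac1 is higher at 0.38. Copy and gene were both lower for the actin-binding peptide gene Tmsb10 and its copy Gm9844, and for Rpl9 and Rpl9-ps6. Gm10282 and its match Hmgn2, a nucleosome-binding protein gene, were both higher, at 0.71 and 1.80 in the authors' deposited table. Hmgn2 had 884, 950.5 and 977 normalized counts in Kmt2a KO libraries, against 118, 605 and 86.9 in WT libraries, where library b stood above the others.

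**Figure D2:**
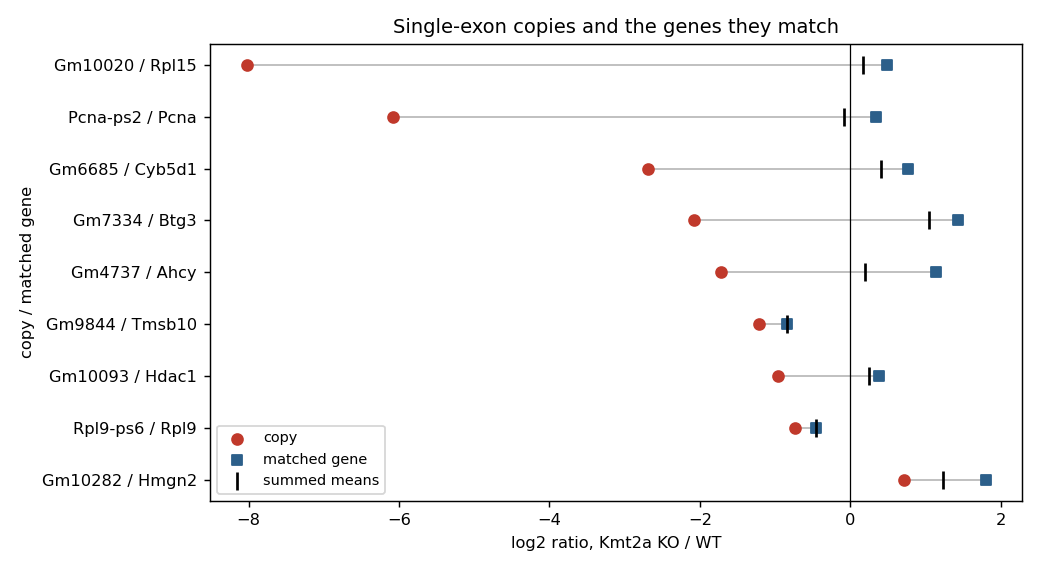
Log2 ratios, Kmt2a KO over WT, for 9 single-exon copies (red, from the authors' deposited table), the genes they match (blue) and the sum of both means (black). Of the 9 copies 8 lie below 0 and of the matches 2 do. Each sum lies between its pair, which holds for any ratio of summed means.

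The other copies with a matched gene were those of ribosomal protein genes and a few others. With Gm10020, Gm10036 and Rpl9-ps6 from above and the copy of Fau counted in, the 8 single-exon copies of ribosomal protein genes were all lower. Among the members named -ps, Rpl27-ps3 had 59.5, 54.2 and 53.2 normalized counts in Kmt2a KO libraries, against 160.4, 132 and 185 in WT libraries. Rpl23a-ps3 had 594, 1007 and 491 in Kmt2a KO libraries, against 1190.2, 1046 and 1503 in WT libraries, so that knockout library b came close to WT library b. Rpl9-ps6 had 341, 343 and 297 in Kmt2a KO libraries, against 494, 540.1 and 604 in WT libraries. Ftl1-ps1, which has several exons and copies the ferritin light chain gene Ftl1, had 526, 491 and 400 in Kmt2a KO libraries, against 1103, 977 and 1314 in WT libraries. The log2 fold changes in the authors' deposited table are −1.51, −0.84, −0.74 and −1.26 in that order of genes. Gm9008, a copy of the E3 ubiquitin ligase gene Rnf26, was the second single-exon copy that was higher (1.06 in the authors' deposited table). Gm9843, identical to a Fau transcript, had 514, 503 and 357 normalized counts in Kmt2a KO libraries, against 1034, 983 and 1034.5 in WT libraries, and Fau encodes a ubiquitin-like protein fused to ribosomal protein S30. Gm10053, a copy of the cytochrome c gene Cycs, had 100.3, 106 and 105 in Kmt2a KO libraries, against 227, 123 and 182 in WT libraries. Neither overlapped. Gm12666, a copy of the RNA-binding protein gene Larp7 with several exons, had 1 read over the Kmt2a KO group and 61 over the WT group, a ratio of WT to KO of 72.0 (12.4 to 2889).

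Chromosome 14 held 16 members, 11.5% of the 139 genes of the table on that chromosome, against 122 members among the 3956 genes of the whole table. All 16 were lower, as were all 4 members on chromosome 10 and all 4 on chromosome 15. The share of all chromosome 14 genes that were lower was not computed. Clustered copies make up 13 of these, 8 in a proximal cluster at chr14:3049285-7568566 and 5 in a distal one at chr14:43925390-44370841. The clusters were split by position only. In the distal one Gm8220, Gm8229, Gm5930, 4930503E14Rik and Gm8113 have 35, 35, 14, 2 and 2 near copies on the chromosome. Not all of them are copies of each other. Members of the proximal cluster each match 64 to 70 other genes of the same chromosome, so which copy a read came from is uncertain. Summed reads of the 8 proximal members were 13, 11 and 7 in Kmt2a KO libraries, against 153, 57 and 241 in WT libraries. In the distal cluster they were 67, 101 and 43 in Kmt2a KO libraries, against 184, 274 and 240 in WT libraries. Gm8113 alone held 65, 51 and 40 of these knockout reads and 89, 73 and 84 of the WT reads. The groups did not overlap in either cluster, and WT library b was the lowest WT library of the proximal cluster. Each summed gene was lower without overlap and was listed for a test on these libraries, so these sums add no support.

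Gm2974 had no read in the 3 Kmt2a KO libraries, against 25.0, 11.0 and 39.2 normalized counts in WT libraries, which is at least 28.3-fold lower when 3 reads over the knockout group are taken as the floor. Gm3373 had none either, against 17.7, 7.72 and 39.2 in WT libraries, or at least 24.3-fold lower. Gm3591 had 1 read over the Kmt2a KO group and 88 over the WT group, a ratio of WT to KO of 119 with a 95% exact interval of 20.8 to 4751 that covers counting error only. Gm3558 had 3 reads over the Kmt2a KO group and 57 over the WT group, a ratio of 25.5 (8.30 to 127). Gm3411, Gm5796 and Gm10406 had 1, 1 and 2 reads over the Kmt2a KO group, and 51, 28 and 36 over the WT group. For Gm3411, knockout library a and WT library b held 1 read each, so only their size factors set these libraries apart (0.850 and 1.10 normalized counts). Gm2897 had 5.10, 8.74 and 6.53 normalized counts in Kmt2a KO libraries, against 23.95, 16.5 and 38.0 in WT libraries. With all 8 members at their values and the 2 without reads at their bounds, the median log2 fold change was −4.73 for the proximal cluster.

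In the distal cluster Gm8229 had 0.850, 11.4 and 0.933 normalized counts in Kmt2a KO libraries, against 37.5, 79.4 and 80.8 in WT libraries. Gm5930 had 0.850, 28.9 and 1.87 in Kmt2a KO libraries, against 48.9, 114 and 85.7 in WT libraries. Knockout library b held most of their knockout reads, and without it the log2 ratios were −5.14 and −5.15, against −3.63 and −2.86 with it. Gm8220 and 4930503E14Rik had 2 reads each over the Kmt2a KO group, and 31 and 27 over the WT group. Gm8113 had 55.3, 44.6 and 37.3 in Kmt2a KO libraries, against 92.7, 80.5 and 103 in WT libraries. The log2 fold changes in the authors' deposited table are −3.90, −2.97 and −1.004.

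**Figure D3:**
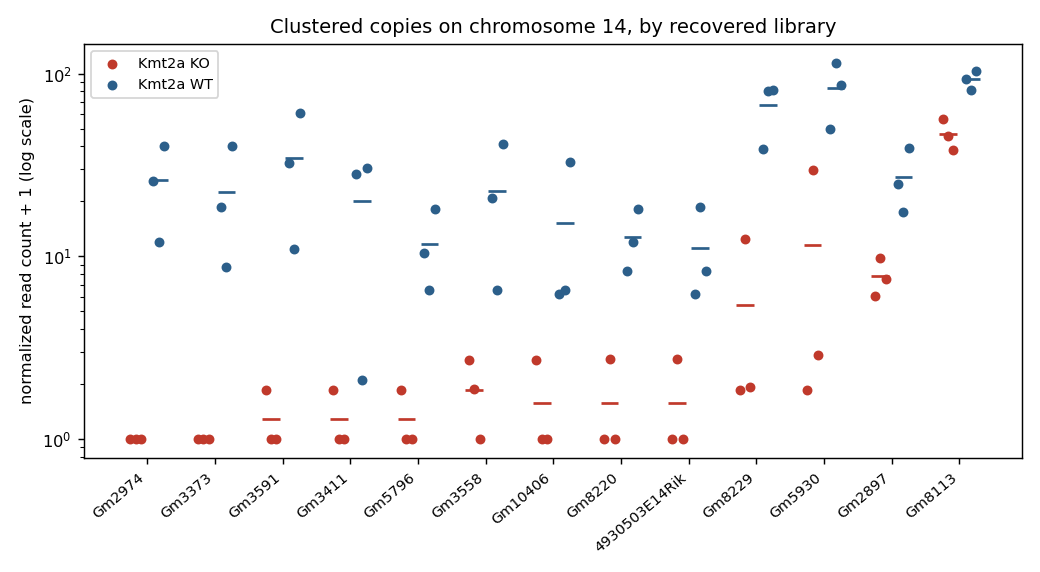
Normalized read counts with 1 added, on a log axis, of the 13 clustered copies on chromosome 14 in each recovered library, Kmt2a KO in red and WT in blue, with group means as lines. Several knockout libraries sit at 1, that is at no read, and each gene's WT libraries lie above its knockout libraries. For Gm3411 the lowest WT library and the highest knockout library hold 1 read each and differ by size factor only.

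Of the 4 clustered copies on other chromosomes 3 were higher, and Gm14597 on chromosome X was lower at −0.80 in the authors' deposited table. Gm21149 at chr5:15471703-15476523, with 21 near copies on that chromosome, had 117, 115 and 126 normalized counts in Kmt2a KO libraries, against 4.17, 0 and 4.90 in WT libraries. The authors' deposited table gives a log2 fold change of 5.32 (adjusted p = 1.38e-17), the highest among members with a group mean of at least 50. Gm7361 on the same chromosome had 54 reads over the Kmt2a KO group and 1 read over the WT group, a ratio of 46.1 (7.93 to 1854). Gm2004 on chromosome 2, in a list of provisionally named KRAB zinc finger genes, had 60.4, 54.2 and 56.0 in Kmt2a KO libraries, against 10.4, 15.4 and 13.5 in WT libraries. It was the only one of the 40 genes of that list with a row. Gm2004 has 14 near copies on chromosome 2, and 100% of the windows of its compared transcript are shared with another gene. Reads over that transcript therefore cannot be assigned to Gm2004 alone.

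Interferon-inducible GTPases of the IRG family act against pathogens inside vacuoles. RefSeq gives Gm4951 the synonym Ifgga2 and F830016B08Rik the synonym Ifgga4. Gm4951 at chr18:60212080-60247820 had 65.5, 101 and 71.9 normalized counts in Kmt2a KO libraries, against 5.21, 5.51 and 6.12 in WT libraries. F830016B08Rik at chr18:60293380-60303016 had 57.0, 56.8 and 39.2 in Kmt2a KO libraries, against 3.12, 2.20 and 1.22 in WT libraries. Neither overlapped, and the authors' deposited table gives log2 fold changes of 3.83 (adjusted p = 3.00e-12) and 4.52 (adjusted p = 1.14e-08). Of 14 interferon-inducible GTPases with standard names, 5 had a row, and 4 of these were higher (Irgm2, Iigp1, Tgtp1 and Gbp4) and 1 lower (Gbp8). Iigp1 had 597, 818 and 558 in Kmt2a KO libraries, against 319.7, 291 and 247 in WT libraries. The list of 7 provisionally named GTPases does not hold F830016B08Rik. Of its genes, 3 had a row, 2 higher (Gm4951 and Gm12250, which is no member) and 1 lower. Gm12216, the lower one, is on the list of provisionally named GTPases but is annotated as non-coding RNA by RefSeq, and it had 149, 258 and 153 in Kmt2a KO libraries, against 335, 388 and 306 in WT libraries. Of the macrophage markers with a row, all 3 were higher in Kmt2a KO (Adgre1, Cd68 and Lyz2). Adgre1 had 763, 599 and 625 in Kmt2a KO libraries, against 230.1, 229 and 119 in WT libraries, and its part in the results for these genes was not tested. Fewer cells of a type and less RNA per cell cannot be told apart in these bulk samples.

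2010005H15Rik, named Csta2 in RefSeq after the cystatin A family of cysteine protease inhibitors, had 21.3, 16.6 and 18.7 normalized counts in Kmt2a KO libraries and no read in WT libraries, which is at least 16.8-fold higher. Stfa1, a gene of the same family that is no member, had 23.0, 7.00 and 4.67 in Kmt2a KO libraries and likewise no read in WT libraries. In 4 other members no WT library held a read, and these were chosen after their values were seen. Gm13030 was at least 19.6-fold higher, with 25.5, 7.87 and 32.7 in Kmt2a KO libraries, and 1700012P22Rik at least 10.7-fold higher. Gm9573 and 4933407L21Rik were at least 7.45-fold and 6.31-fold higher, with 29 and 24 reads over the Kmt2a KO group.

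4930539E08Rik (Bnip5 in RefSeq) at chr17:28896397-28915324 had 156, 78.7 and 162 normalized counts in Kmt2a KO libraries, against 6.25, 3.31 and 12.2 in WT libraries. Gm14569 (synonym Kiaa1210) had 77.4, 38.5 and 41.1 in Kmt2a KO libraries, against 7.29, 11.0 and 1.22 in WT libraries. The groups were far apart for both, at 4.21 and 2.99 in the authors' deposited table. 9330182L06Rik (Elapor2) had 241, 321 and 334 in Kmt2a KO libraries, against 137, 63.9 and 114 in WT libraries. 2210011C24Rik (Misp3) had 948, 1189 and 882 in Kmt2a KO libraries, against 608, 438 and 263 in WT libraries. Each knockout library exceeded each WT library. 1700020L24Rik had 174, 172 and 256 in Kmt2a KO libraries, against 106, 87.1 and 80.8 in WT libraries, and 44.4% of its exon bases overlap the protease gene Mmp28 on the other strand. If the counting used no strand, reads over those shared bases cannot be told apart. Gm9938 had 121, 129 and 221 in Kmt2a KO libraries, against 59.4, 105 and 58.8 in WT libraries, with WT library b close to the lowest knockout library.

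**Figure D4:**
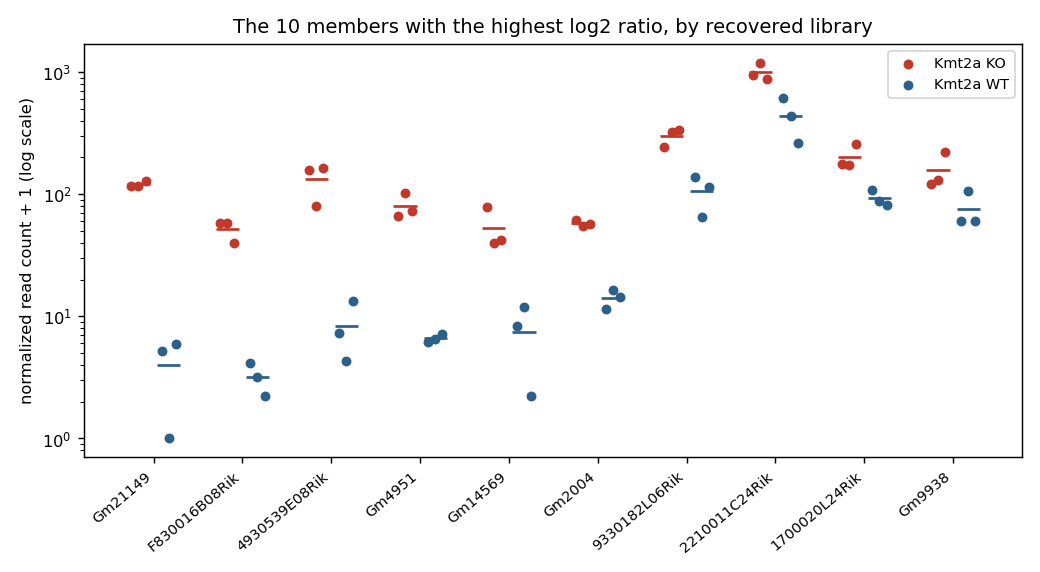
Normalized read counts with 1 added, on a log axis, of the 10 members with the highest log2 ratio among those with a group mean of at least 50, by recovered library, Kmt2a KO in red and WT in blue. Knockout libraries lie above WT libraries in all 10.

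Among members with no near copy that were lower, D430041D05Rik at chr2:104143073-104410334 had 14.5, 35.9 and 15.9 normalized counts in Kmt2a KO libraries, against 165, 106 and 174 in WT libraries (log2 fold change −2.75, adjusted p = 1.65e-08 in the authors' deposited table). 4930452B06Rik (Cfap20dc) had 47.6, 32.4 and 29.9 in Kmt2a KO libraries, against 85.4, 100.3 and 239.96 in WT libraries. WT library c was high for several lower members: it was the highest WT library in 42 of 79 lower members, or 53.2%, against 41.2% of all lower genes, and it was more than 2 times each of the other WT libraries in 9, or 11.4%, against 5.96% of all lower genes. Without it the log2 ratio of 4930452B06Rik was −1.32, against −1.93 with it. The ciliated cell marker Tekt2 was likewise highest in WT library c, with 229.6, 292 and 204 in Kmt2a KO libraries, against 358, 389 and 926 in WT libraries, and 2 of 24 ciliated markers had a row (Dnah5 was higher). Its part in the results was not tested.

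Further members with no near copy were chosen after their values were seen. 5830411N06Rik (synonym Scart2) had 32.3, 42.0 and 37.3 normalized counts in Kmt2a KO libraries, against 115, 116 and 122 in WT libraries, the WT libraries lying close together. 9130230L23Rik had 205, 318 and 309 in Kmt2a KO libraries, against 415, 617 and 1698 in WT libraries, and D930020B18Rik had 57.0, 64.7 and 68.1 in Kmt2a KO libraries, against 125, 152 and 331 in WT libraries. In both WT library c was the highest. The release GENCODE M21 gives another symbol to 9 members. Among these, Gm16432 is Catspere2, Gm16486 is Iqcn, 2810428I15Rik is Rex1bd, 3110002H16Rik is Rmc1, 3110062M04Rik is Cyren, 9130011E15Rik is Armh3 and A830080D01Rik is Bclaf3. In the authors' deposited table, Gm16432, 2810428I15Rik, 3110002H16Rik, 3110062M04Rik and A830080D01Rik are lower, with log2 fold changes from −1.10 to −0.36. Gm16486 and 9130011E15Rik are higher in that table, at 1.74 and 0.58. Gm694, which M21 calls Srarp, had 35 reads over the Kmt2a KO group and 2 over the WT group, a ratio of 13.6 (3.50 to 117).

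Of the 6 members with the highest means, 4 were higher in Kmt2a KO. 1810037I17Rik had 3846, 3589 and 3213 normalized counts in Kmt2a KO libraries, against 2305, 2902 and 2440 in WT libraries. B230219D22Rik had 3192, 3188 and 3828 in Kmt2a KO libraries, against 1915, 2349.9 and 2128 in WT libraries. 4833439L19Rik (P33monox) and 2310007B03Rik (Mab21l4) were higher at 0.47 and 0.66 in the authors' deposited table. 2700081O15Rik had 1343, 1462 and 1327 in Kmt2a KO libraries, against 2311, 2541 and 2995 in WT libraries. 2010111I01Rik (Aopep, aminopeptidase O) had 1312, 1326 and 1055 in Kmt2a KO libraries, against 2695, 2703 and 2496 in WT libraries. Every knockout library lay below every WT library for these last genes.

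The Men1 table held 7 of the 122 members among its 772 genes, 6 higher and 1 lower in Men1 KO lungs. It is limited to p below 0.05 and a fold of at least 2, and 70.1% of its genes are higher. By the authors' deposited table, 0 of the 7 had an adjusted p under 0.05, all 7 had an unadjusted p under 0.05, and 2 had no adjusted p. Of all its genes 1.68% were called. edgeR's quasi-likelihood test and DESeq2, each run on the 772 listed genes, called 1 of the 7, and of all 772 genes edgeR called 35.8% and DESeq2 30.3%. Listing in that table already rested on these libraries. Signs in the Men1 and Kmt2a tables were the same for 3 members and opposite for 4. WT means of the single-exon copies Gm7334, Gm9493 and Rpl27-ps3 were 225, 513 and 159 in the Kmt2a table, against 4.61, 12.2 and 10.7 in the Men1 table. For 1810010D01Rik, 1300017J02Rik, Gm933 and Gm3373 they were 81.5, 6.59, 10.1 and 21.5, against 80.2, 8.48, 17.7 and 4.74. Signs of those single-exon copies thus compare counts at unlike levels.

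Gm7334 had 16.1, 15.3, 12.1 and 13.6 normalized counts in Men1 KO libraries, against 1.18, 3.51, 10.6 and 3.11 in WT libraries. It was the only one of the 7 without overlap (35.5% of the table), with a two-sided exact permutation p of 0.0286, the smallest that 70 regroupings of 4 against 4 can give. All 7 were listed for a small p and a large fold on these same libraries, so their permutation p-values are no independent support. The log2 ratio of Gm7334 with a pseudocount of 1 was 1.44, and 2.08 without WT-6097. Gm3373 had no read in the 4 Men1 KO libraries, against 11.8, 0, 1.93 and 5.18 in WT libraries, so that the groups overlapped at 0 (exact permutation p = 0.143). The authors' deposited table gives it no adjusted p. edgeR with TMM gave it an adjusted p of 0.0052 and DESeq2 one of 0.0081, both adjusted only over the 772 genes already selected for small p and large fold, so that these values are too small.

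1300017J02Rik, named Inhca in that table, had 13.2, 14.5, 13.7 and 50.5 normalized counts in Men1 KO libraries, against 4.73, 15.2, 7.73 and 6.22 in WT libraries. KO-6086 stood apart, and without it the log2 ratio was 0.65, against 1.34 with it. Gm933 (Smbd1) had 25.5, 31.2, 51.7 and 55.5 in Men1 KO libraries, against 17.7, 29.3, 12.6 and 11.4 in WT libraries. 1810010D01Rik (Smim38) had 136, 90.1, 191 and 265 in Men1 KO libraries, against 59.1, 156, 42.5 and 63.2 in WT libraries. The ribosomal copies Gm9493 and Rpl27-ps3 averaged 24.9 ± 10.0 and 22.3 ± 7.93 in Men1 KO libraries, and 12.2 ± 1.45 and 10.7 ± 4.64 in WT libraries (SD, n = 4 each). The groups of these 5 genes overlapped, with exact permutation p values from 0.0571 to 0.114. In Kmt2a KO, 1300017J02Rik and Gm933 were higher (2.00 and 2.07 in the authors' deposited table), as in Men1 KO, while 1810010D01Rik, Gm9493 and Rpl27-ps3 were lower.

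**Figure D5:**
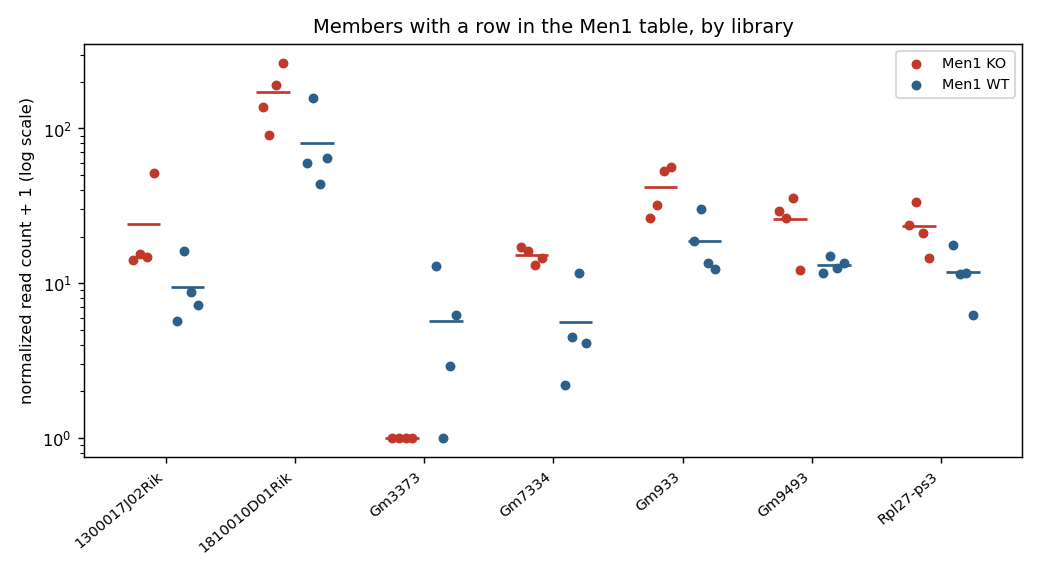
Normalized read counts with 1 added, on a log axis, of the 7 members with a row in the Men1 table, Men1 KO in red and WT in blue, one point per library and group means as lines. Gm7334 is the one gene whose groups do not overlap.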

How the data were processed

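The Kmt2a table holds the mean of normalized counts per group, a signal the authors deposited without values per library, with deposited log2 fold changes, p-values and adjusted p-values, and only genes with an adjusted p below 0.05. The Men1 table holds deposited raw read counts per library, normalized counts (a signal, which the authors scaled with size factors), and deposited log2 fold changes and p-values, and 2 further WT columns match no sample and were not used. Per the submitters' processing notes, the tools were DESeq2 1.16.1, HISAT2 2.0.5 and featureCounts 1.5.0-p3, and the builds named are mm10 and GRCm38. The kit named in the labels' protocols (NEBNext Ultra) was taken to keep no strand information, so reads over exons shared by overlapping genes on either strand cannot be told apart. The WT column of the Kmt2a table was taken as the WT group of the Kmt2a labels.

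Whole reads of 3 libraries were recovered from the 15 digit means up to 10000, giving 1 solution for both groups in 3811 of 3956 genes and in all 122 members. The solver was tested on simulated data. Both deposited tables are selected, so no genome-wide test was made. The authors' adjusted p is the call, exact permutation tests served Men1, and edgeR 4.0.16 and DESeq2 1.42.0 (R 4.3.3) were run on the listed genes. Log2 ratios use a pseudocount of 1. Near copies were found with BLAST 2.17.0 at 90% identity over 80% of a transcript, and shared sequence in windows of 100 bases. Members, lists and these limits were chosen with earlier results of these data known. Named genes are the 10 highest and 10 lowest log2 ratios among members with a group mean of at least 50, the 6 highest means, members with a row in the Men1 table, -ps names and list members. Fold bounds take 3 reads over a group as the floor and intervals are 95% and cover counting error only. The single values of 1 single-exon copy and its match are not reported here.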

Additional observations from a re-analysis of the deposited data

Results flagged for a closer look

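In the Men1 comparison, 1300017J02Rik in KO-6086 had 50.5 normalized counts, far from the other Men1 KO libraries at 13.2, 13.7 and 14.5. Chance flags about 1 in 20 groups of this size in this way, and 13 groups of 4 with any spread were examined. Gm7334 was higher in every Men1 KO library than in any WT library (log2 ratio 1.44), while in the Kmt2a table every knockout library was below every WT library. That difference between the knockouts was not tested. WT means of Gm7334 were 225 normalized counts in the Kmt2a table and 4.61 in the Men1 table, so it sets unlike levels side by side.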

How the results depend on the processing

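With only Gm names, 44 members were lower and 21 higher, with a median log2 ratio of −0.99, and with only Rik names 30 were lower and 22 higher, with −0.54, against 79, 43 and −0.84 for all. Without members whose gene body overlaps another gene, 44 were lower and 20 higher, with −0.96. Without near copies, an alternative chosen after seeing the data, 46 were lower and 37 higher, with −0.57, and without chromosome 14, chosen likewise, the median was −0.68. By a 2-fold limit 51 were lower, with a mean of at least 50 there were 19 higher, and with a pseudocount of 10 the median was −0.76. Leaving out each library gave medians from −0.84 to −0.79. Of the 105 members with at least 10 reads in the lowest library of the higher group, 104 had groups that did not overlap. The share over all genes was not computed with that read limit, and without it was 97.1%. Genes were listed for a test on these same libraries, so this count says nothing particular about the members. With a mean of at least 10, 0 members were lower in Men1 KO, against 1. Both edgeR fits on the 3811 listed genes with recovered reads called 99.97% and 99.92% of them, all members included, but these genes were listed for passing a test on the same libraries, so the fits say nothing about stability. Leaving out WT-6074 moved the Men1 log2 ratio of Gm3373 to −1.75, against −2.52, and WT library c moved it in Kmt2a to −3.78, against −4.49. No paired analysis was possible because animal numbers are not shared between groups. The limits are that both tables hold selected genes only, that recovered libraries cannot be tied to animals, and that reads over the shared stretches of near copies cannot be assigned.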
